A study of Homo sapiens with 12 samples.

Results

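The distal long arm of chromosome 19 carries one of the largest arrays of KRAB zinc finger genes in the human genome. The stretch described here runs on hg19 from position 52000000 to 59128983 of chromosome 19, a window of 7.13 Mb in band 19q13 that ends with the chromosome. Its members were chosen by position alone: every called region of 10 lists that overlapped the window, 1416 of 262931 regions in all. Of these, 777 came from SW480 and 639 from SW620, and none crossed the proximal border. The remaining 11579 regions of chromosome 19 served as the comparison.

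Most proteins of this family join a KRAB domain to a row of C2H2 zinc fingers. The fingers read DNA, often within transposable elements, and the KRAB domain recruits the corepressor TRIM28 (also called KAP1), whose own gene lies near the end of the same arm. Of the histone marks followed, H3K4me3 is typical of promoters and H3K36me3 of the bodies of transcribed genes, while H3K4me2 and H3K27ac are found at promoters as well as enhancers, H3K27ac at those in use. Zinc finger genes of these clusters are known for carrying H3K36me3 together with H3K9me3 over the exons that encode the fingers. H3K9me3 was not among the antibodies used.

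SW480 and SW620 are established human colorectal adenocarcinoma lines, given in the labels as Dukes' type B and type C, and both were grown untreated. Chromatin immunoprecipitation with sequencing was carried out in each line with antibodies to H3K4me2, H3K4me3, H3K27ac, H3K36me3 and the forkhead factor FOXA2, and regions were called over the input of that line. Each antibody and line had 1 library, so no test between the lines or between stretches was possible, and no difference could be checked against replicates. Shares are given with 95% intervals by the Wilson method, which cover counting error only and treat neighbouring regions as independent. Libraries held 12791745 to 47867295 tags. The H3K27ac libraries differed in the share of tags inside regions, 58.5% in SW480 and 27.5% in SW620, as did the H3K4me3 libraries, 73.0% and 52.0%.

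The zinc finger label was set against gene order. In the RefSeq gene table, which is on GRCh38 and was used for names and neighbours only, 237 protein-coding genes follow one another from ZNF175 to the end of the long arm. That ZNF175 is close to the proximal border was taken from general knowledge of the locus. Of these genes, 113 (47.7%) have zinc finger symbols (ZNF, ZSCAN, ZIM, ZFP, ZIK or MZF), against 153 of the 1214 (12.6%) before ZNF175. The 1214 hold 8 KIR genes and 1 LILR gene, whose places on the chromosome were not checked. The other genes from ZNF175 onward include 10 LILR and 7 KIR genes, which encode receptors of leukocytes, and 9 NLRP genes, several of which act in germ cells. The window is therefore a mixture, and the chromatin below could not be assigned to single genes, since no annotation of the files' build was used here.

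Acetylation in the window lay mostly at promoters. Of the H3K27ac regions, 148 of 155 in SW480 and 107 of 112 in SW620 overlapped H3K4me3 of the same line, 95.5% in each. On the rest of chromosome 19 the shares were 76.8% in SW480 and 74.5% in SW620. The acetylated regions without H3K4me3, a pattern often taken for active enhancers, thus numbered 7 in SW480 (4.52%, 2.20 to 9.03) and 5 in SW620 (4.46%, 1.92 to 10.0). Elsewhere on the chromosome they numbered 288 (23.2%, 20.9 to 25.6) and 272 (25.5%, 23.0 to 28.2), and over the whole lists they made up 33.0% and 40.1%. Per Mb, the window held 0.982 such regions in SW480 and 0.701 in SW620, where the rest of the chromosome held 5.90 and 5.57. The intervals of window and rest did not overlap in either line. The median widths of acetylated regions were 2085 bp against 2320 bp in SW480 and 2015 bp against 2150 bp in SW620.

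H3K4me2 had the same division. Of the SW480 regions 155 of 184 (84.2%) and of the SW620 regions 135 of 173 (78.0%) lay on H3K4me3, against 65.4% and 56% on the rest of the chromosome. H3K4me2 regions without H3K4me3 stood at 4.07 per Mb in SW480 and 5.33 per Mb in SW620, against 11.5 and 14.9 elsewhere. H3K4me2 regions with no other mark numbered 23 in SW480 (12.5%, 8.48 to 18.1) and 31 in SW620 (17.9%, 12.9 to 24.3). On the rest of the chromosome the shares were 19.5% (17.6 to 21.5) and 29.8% (27.6 to 32.0), and in the whole lists 22.6% and 32.8%. For these regions the intervals of window and rest overlapped slightly in SW480 and did not in SW620.

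**Figure D1:**
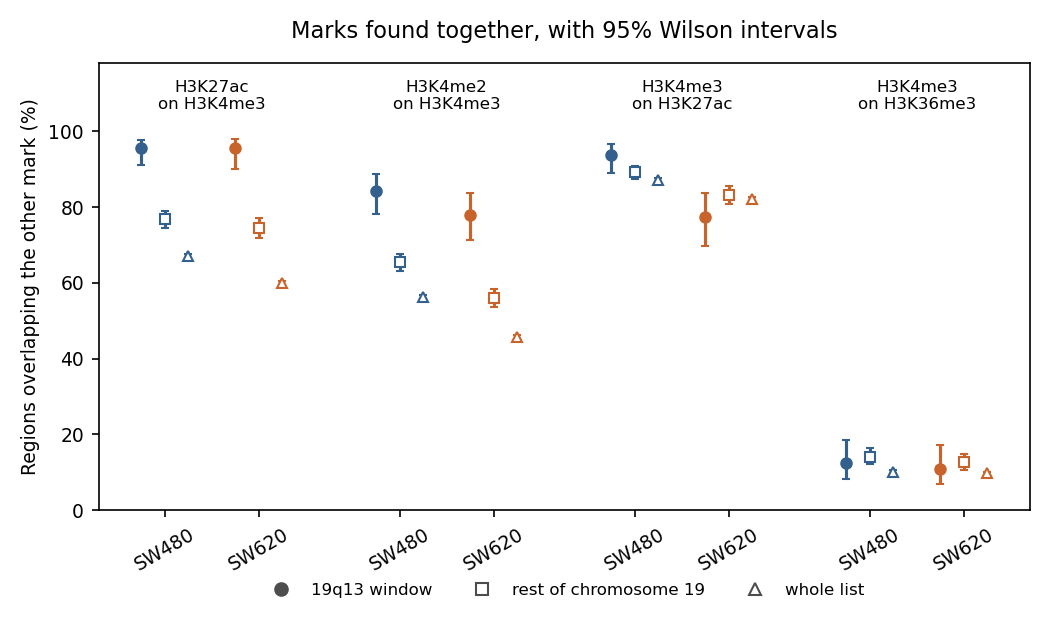
Percentage of regions of the first mark that overlap the second mark in the same line, with 95% Wilson intervals, for SW480 (blue) and SW620 (orange) in the 19q13 window (filled circles), the rest of chromosome 19 (squares) and the whole list (triangles). H3K27ac regions of the window lay on H3K4me3 in 95.5% of cases in either line, above 76.8% and 74.5% on the rest of the chromosome, while H3K4me3 lay on H3K36me3 in 12.4% and 10.9% of cases in the window and 14.1% and 12.6% on the rest.

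The few sites without H3K4me3 were not spread evenly. The window was divided into bins of 1 Mb, of which the last, from 59 Mb to the end, is shorter. In the 3 bins from 54 to 57 Mb, a span picked after the values were seen, lay 6 of the 7 SW480 and all 5 SW620 acetylated regions without H3K4me3, and 26 of the 29 SW480 and 36 of the 38 SW620 H3K4me2 regions without it. Bin by bin, that span held 30, 38 and 25 of all 184 SW480 H3K4me2 regions and 31, 38 and 21 of all 173 in SW620. For H3K27ac it held 22, 28 and 19 of all 155 SW480 regions and 13, 17 and 15 of all 112 in SW620. From 52 to 54 Mb neither line had an acetylated region without H3K4me3, and each bin there had at most 1 such H3K4me2 region. On the rest of chromosome 19 a bin held a median of 6 acetylated regions without H3K4me3 in SW480 and 4 in SW620. Bins without any were found there too, 8 of 49 in SW480 and 9 of 49 in SW620, against 4 and 6 of the 8 window bins.

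The 3 widest SW480 acetylated regions without H3K4me3 were a 3.34 kb region at 56312175 to 56315513, with 1 SW480 H3K4me2 region and no mark in SW620, a 2.28 kb region at 56064217 to 56066499 and a 1.87 kb region at 58905454 to 58907324. The last lay wholly under H3K36me3 in both lines, 4668 bp from the nearest SW480 H3K4me3. In SW620 the widest were 1.70 kb at 55720866 to 55722566, 1.27 kb at 55586539 to 55587805 and 1.26 kb at 55855821 to 55857083. The first of these held an SW620 FOXA2 peak and no mark in SW480. The second lay on H3K4me3 in SW480, so that its class rests on a missing SW620 call.

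Promoters themselves were as dense as elsewhere on this gene-rich chromosome. H3K4me3 was called in 161 SW480 and 137 SW620 regions, 22.6 and 19.2 per Mb, against 22.3 and 19.6 on the rest of chromosome 19. It covered 4.97% and 4.08% of the window and 4.87% and 4.43% of the rest. Joined across lines, the calls made 160 sites with a median of 19185 bp between neighbours (20971 bp elsewhere). Their median widths by line were 1909 and 1863 bp in the window and 2035 and 2075 bp outside it. All but 1 H3K4me3 region per line lay on H3K4me2. H3K27ac accompanied 151 of 161 in SW480 (93.8%, against 89.2% elsewhere) and 106 of 137 in SW620 (77.4%, against 83.3%).

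The widest promoter regions were common to the lines. At 54368374 to 54373738 SW480 had a region of 5.37 kb, and SW620 one of 5.89 kb at 54368108 to 54374002. The next were 5.36 kb in SW480 and 5.22 kb in SW620 from 56150241 and 56150246, and 5.35 and 5.67 kb from 55894596 and 55894402. All were acetylated in both lines. The last also lay partly under H3K36me3, 29.7% of the SW480 region in SW480 and 52.4% of the SW620 region in SW620.

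H3K36me3, the mark of transcribed bodies, made up most of the marked sequence. It was called in 256 SW480 regions covering 812 kb, or 11.4% of the window, and in 207 SW620 regions covering 690 kb, or 9.67%. On the rest of chromosome 19 it covered 13.9% and 13%. The ratio of window to rest was 0.820 and 0.745, and against the rest of the long arm alone it was 1.00 in SW480 and 0.916 in SW620, so that in SW480 the lower cover did not hold within the arm. Most H3K36me3 regions met no other mark of their line, 224 of 256 in SW480 (87.5%, against 79.1% elsewhere) and 176 of 207 in SW620 (85.0%, against 78.1%). Of all bases under any of the 4 marks, 58.2% in SW480 and 56.5% in SW620 had H3K36me3 alone (56.8% and 54.7% elsewhere). Bases with H3K4me2, H3K4me3 and H3K27ac together followed with 20.6% and 17.2%.

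Neighbouring H3K36me3 regions were joined over gaps of up to 3 kb to measure the extent of each marked stretch. This gave 140 domains in SW480 and 107 in SW620. Their median width was 3928 bp in SW480, against 5625 bp on the rest of the chromosome, and 4723 bp in SW620, against 5000 bp. The narrower SW480 domains depended on the join: the ratio of medians, window over rest, was 0.698 with gaps of up to 3 kb and 0.999 with gaps of up to 1 kb. In SW620 it was 0.945 and 1.06. The upper quartile was 9281 bp and 9810 bp in the window, where it was 12098 bp and 11607 bp outside it. Domains of at least 10 kb numbered 31 in SW480 (22.1%, 16.1 to 29.7; elsewhere 30.4%) and 26 in SW620 (24.3%, 17.2 to 33.2; elsewhere 29.7%). The longest measured 36.2 kb in SW480 and 45.5 kb in SW620, and those of the rest of the chromosome, with its larger number of domains, 83.6 and 86.8 kb.

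The longest domains were shared. In SW480 the widest ran from 52696149 to 52732368 (36.2 kb), began or ended 1123 bp from an H3K4me3 region and was 92.7% covered in SW620, whose own joined domain measured 35.8 kb. A second ran from 56155848 to 56185842 (30.0 kb) and held 3 SW480 and 2 SW620 H3K4me3 regions. The overlapping SW620 domain, from 56167409 to 56212924, was the widest of that line. The others were 28.1 kb from 58740551, 27.6 kb from 56598043 and 25 kb from 55739138 in SW480, each matched by an SW620 domain of 27.8, 32.9 and 26.4 kb.

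H3K36me3 often lay near promoters and seldom on them. Of the sites with H3K4me3 in SW480, 123 of 160 (76.9%, 69.8 to 82.7) had H3K36me3 of SW480 within 10 kb, and in SW620 98 of 135 (72.6%, 64.5 to 79.4) did so. Elsewhere on the chromosome the shares were 64.2% (61.3 to 67.0) and 66.7% (63.6 to 69.6). The SW480 intervals of window and rest did not overlap and the SW620 intervals did. Direct overlap of H3K4me3 with H3K36me3 was seen in 20 of 161 SW480 (12.4%) and 15 of 137 SW620 regions (10.9%).

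Cover by H3K36me3 changed along the window. In SW480 the bins from 52 Mb onward had 13.1%, 16%, 7.98%, 8.45%, 9.89%, 5.05%, 18.7% and 15.5% of their bases under H3K36me3. In SW620 the values were 10.9%, 8.08%, 8.62%, 9.14%, 10.0%, 3.91%, 16.4% and 14.6%. The bin from 58 to 59 Mb was the highest and that from 57 to 58 Mb the lowest in both lines. Among the 57 bins of the chromosome that were used, they ranked 16 and 46 in SW480 and 17 and 46 in SW620. Between 54 and 56 Mb, where SW480 had 25 and 28 H3K4me3 regions per bin and SW620 18 and 21, H3K36me3 covered 1.31 and 1.36 times as many bases as H3K4me3 in SW480. From 52 to 54 Mb the ratio was 3.59 and 4.01. In SW620 the order was the same with a smaller contrast, 1.86 and 2.08 from 54 to 56 Mb and 3.20 and 2.83 from 52 to 54 Mb.

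**Figure D2:**
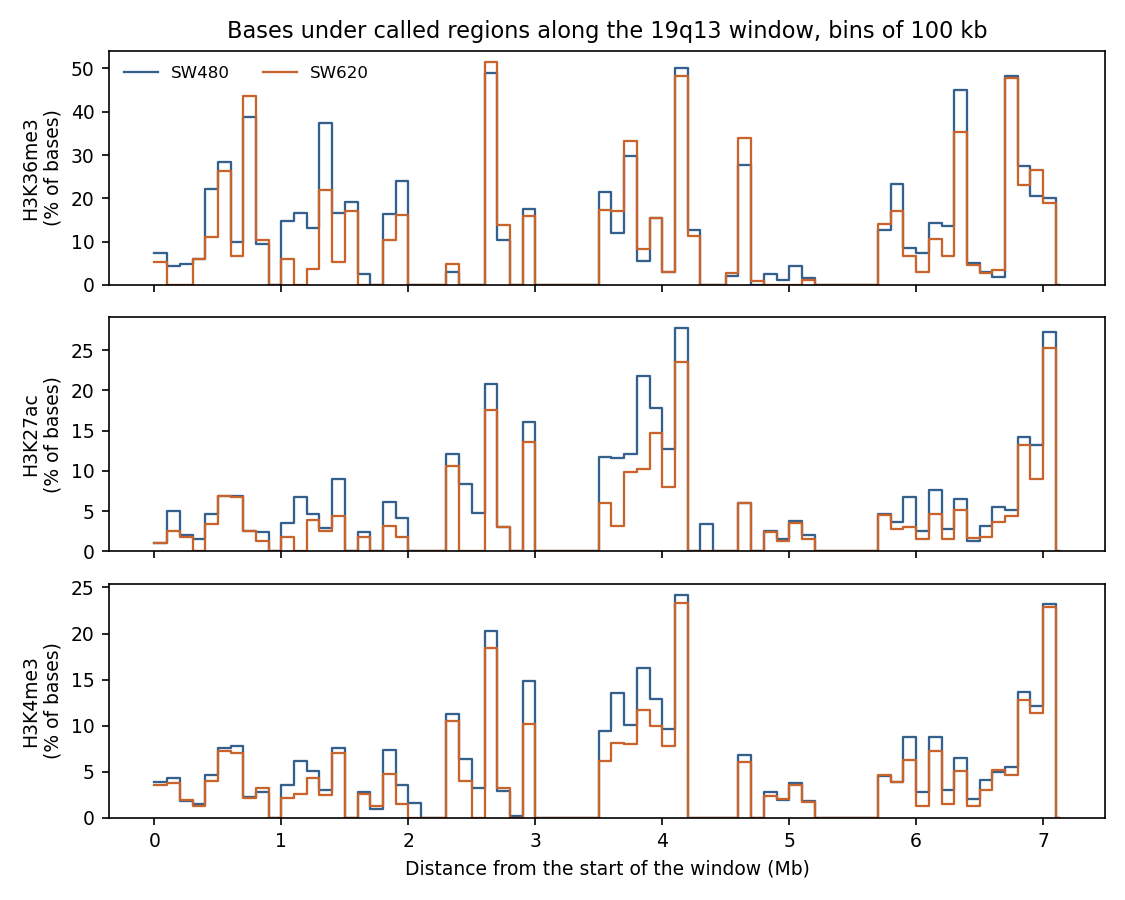
Percentage of bases under H3K36me3, H3K27ac and H3K4me3 regions in bins of 100 kb, against the distance from the start of the window in Mb, for SW480 (blue) and SW620 (orange). Both lines are high and low in mostly the same bins, SW480 is higher for H3K36me3 between 1 and 2 Mb, and a gap of 617 kb without any of the marks lies between 5 and 6 Mb.

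Marked stretches were broken by long ones with none of the 4 histone marks in either line. The longest ran for 617 kb, from 57134183 to 57750928. The others of the 5 longest were 263 kb from 54025282, 246 kb from 55035367, 244 kb from 56332530 and 188 kb from 52841452. Unmarked runs of at least 100 kb numbered 11 and made up 32.6% of the window. On the rest of chromosome 19 there were 56, adding up to 13873 kb. These include a run of 3871 kb that holds the 3.15 Mb stretch free of regions, so their share was not compared with that of the window. Mappability was not measured here.

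The lines differed mainly in one direction, since most histone regions of SW620 were also called in SW480, which had more of each mark. SW620 had no H3K4me3 region of its own in the window, 0 of 137 (up to 2.73% by the interval). Over its whole list 6.85% were called in SW620 only, and on the rest of chromosome 19 3.34% (2.37 to 4.67). SW620-only H3K27ac regions were 4 of 112 (3.57%, 1.40 to 8.82), against 26.8% of the whole list and 13.8% (11.8 to 16) on the rest of the chromosome. SW620-only H3K4me2 regions were 13 of 173 (7.51%, 4.44 to 12.4), against 30.2% of the list and 18.5% (16.7 to 20.4) on the rest. For these 3 marks the SW620 share lay below the list as a whole, and for H3K27ac and H3K4me2 its interval was clear of that on the rest of the chromosome. SW620-only H3K36me3 regions were 32 of 207 (15.5%, 11.2 to 21.0), with 27.9% in the whole list and 18.4% on the rest.

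SW480-only regions were as frequent as in the lists at large, apart from H3K4me2. They were 25 of 161 for H3K4me3 (15.5%, against 17.1% of the whole list), 49 of 155 for H3K27ac (31.6%, against 32.0%) and 87 of 256 for H3K36me3 (34.0%, against 34.3%). For H3K4me2 they were 26 of 184 (14.1%, against 23.2%). The rest of chromosome 19 had 14.7%, 27.7%, 25.6% and 15.5%. The H3K36me3 interval in the window, 28.5 to 40.0, was clear of that on the rest of the chromosome, 23.7 to 27.6. On the rest of the long arm alone the H3K36me3 share was 29.8% (26.8 to 33.0), and that interval overlapped the one in the window. Line-only regions were narrow. The 25 SW480-only H3K4me3 regions had a median width of 1255 bp, against 2148 bp for the shared ones.

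**Figure D3:**
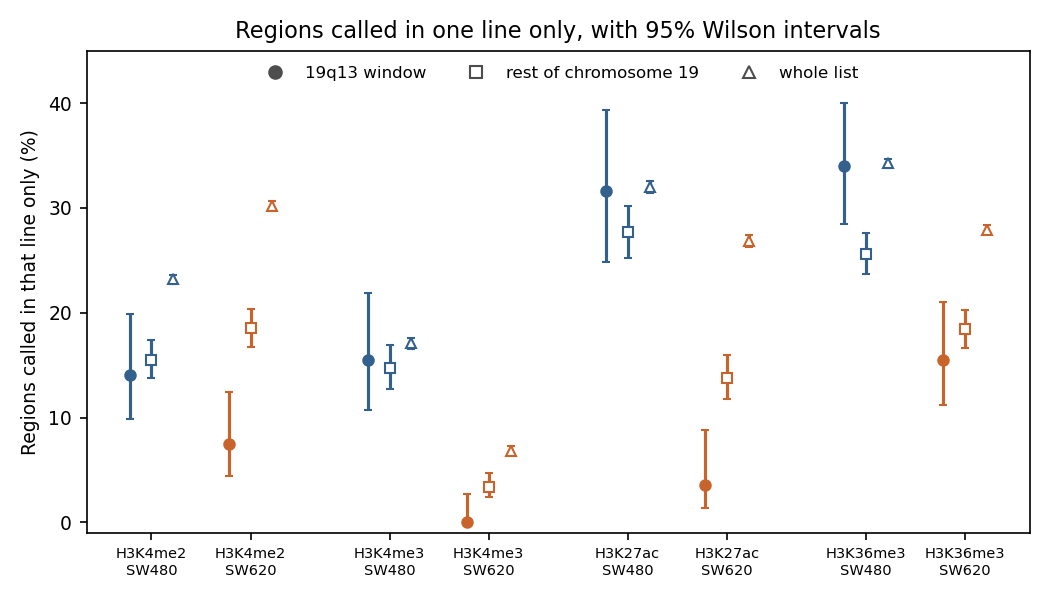
Percentage of regions called in one line only for each histone mark in SW480 (blue) and SW620 (orange), with 95% Wilson intervals, in the window (filled circles), the rest of chromosome 19 (squares) and the whole list (triangles). The SW620 shares of the window lie below the whole list for all 4 marks, at 0 for H3K4me3 and 3.57% for H3K27ac, while the SW480 shares of H3K4me3, H3K27ac and H3K36me3 are near those of the whole list.

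The excess of SW480 was largest for acetylation. SW620 had 0.723 times as many H3K27ac regions as SW480 in the window, where the ratio was 0.857 on the rest of the chromosome and 0.946 in the lists. For H3K36me3 the ratios were 0.809, 0.843 and 0.863, for H3K4me3 0.851, 0.882 and 0.892, and for H3K4me2 0.940, 1.02 and 1.11. All 4 ratios were lower in the window than elsewhere, but that of H3K36me3 rested on the bin from 53 to 54 Mb: without it the ratio was 0.878, above that of the rest and of the lists. The H3K27ac and H3K4me3 libraries of SW620 also had the lower share of tags in regions, and the part of that in these ratios was not tested.

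By number, more of the H3K4me3 sites acetylated in SW480 alone had H3K4me3 in both lines than in SW480 alone, and by share fewer. Of the 160 H3K4me3 sites, 135 were called in both lines and 25 in SW480 alone. At the 135, H3K27ac was found in both lines at 104, in SW480 alone at 27 (20.0%, 14.1 to 27.5), in SW620 alone at 1 and in neither at 3. On the rest of the chromosome 13% (11.0 to 15.4) of the sites called in both lines were acetylated in SW480 alone, and the intervals overlap. Of the 25 window sites with H3K4me3 in SW480 alone, 17 were acetylated in SW480 alone, a larger share (68.0%, 48.4 to 82.8). The 27 sites had narrower H3K4me3, with medians of 1797 bp in SW480 and 1259 bp in SW620, against 2291 and 2130 bp at the 104. H3K36me3 of SW480 lay within 10 kb of 14 of the 27 (51.9%, 34.0 to 69.3) and of 96 of the 104 (92.3%, 85.6 to 96.1). Promoters acetylated in both lines were therefore the ones that more often had H3K36me3 at hand. The same order was found on the rest of the chromosome, with 29.4% and 77.9%.

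Between 54 and 56 Mb, a span picked after the values were seen, lay 15 of the 25 H3K4me3 sites of SW480 alone and 52 of all 160 sites. Of the 25, H3K27ac was found in SW480 alone at 17 (68.0%, 48.4 to 82.8) and in both lines at 2. On the rest of the chromosome it was found in SW480 alone at 66 of 159 such sites (41.5%, 34.1 to 49.3), and the intervals overlap slightly. H3K4me2 was found in both lines at 14 of the 25 (56%, 37.1 to 73.3), against 81.1% (74.3 to 86.5) on the rest, where the intervals do not overlap. The 5 widest with no SW620 H3K4me3 within 1 kb were 2.04 kb at 55689525 to 55691561, 1.90 kb at 56158374 to 56160268, 1.75 kb at 53192926 to 53194680, 1.75 kb at 55516638 to 55518388 and 1.65 kb at 57900377 to 57902023. At the last pair SW620 had none of the 4 histone marks, and the nearest SW620 H3K4me3 lay 55294 and 19710 bp away. The first of them and the one at 53192926 kept H3K4me2 in SW620. The region at 56158374 lay wholly under H3K36me3 in both lines.

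For H3K36me3 the line difference was largest in a single bin. The bin from 53 to 54 Mb had 160 kb under H3K36me3 in SW480 and 80.8 kb in SW620, a ratio of 1.99, the second highest of the 54 bins with H3K36me3 in SW620. That bin alone held 79.7 kb of the 123 kb by which SW480 exceeded SW620 in the window. Without it SW480 covered 652 kb and SW620 609 kb, a ratio of 1.07, the same as in the whole lists. In the other bins SW480 covered 1.20 times as much as SW620 in 52 to 53 Mb, 1.29 times in 57 to 58 Mb (rank 7 of 54), 1.14 times in 58 to 59 Mb and 1.06 times beyond 59 Mb. From 54 to 57 Mb the ratios were below 1, at 0.926, 0.924 and 0.988. Acetylation in 53 to 54 Mb also differed by a factor of 2.03, with 39.5 kb in SW480 and 19.5 kb in SW620. SW480 also had more H3K4me3 and H3K4me2 cover in that bin, 1.40 and 1.31 times that of SW620. Of its 21 H3K4me3 sites, 17 were called in both lines, where the whole window had 135 of 160.

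**Figure D4:**
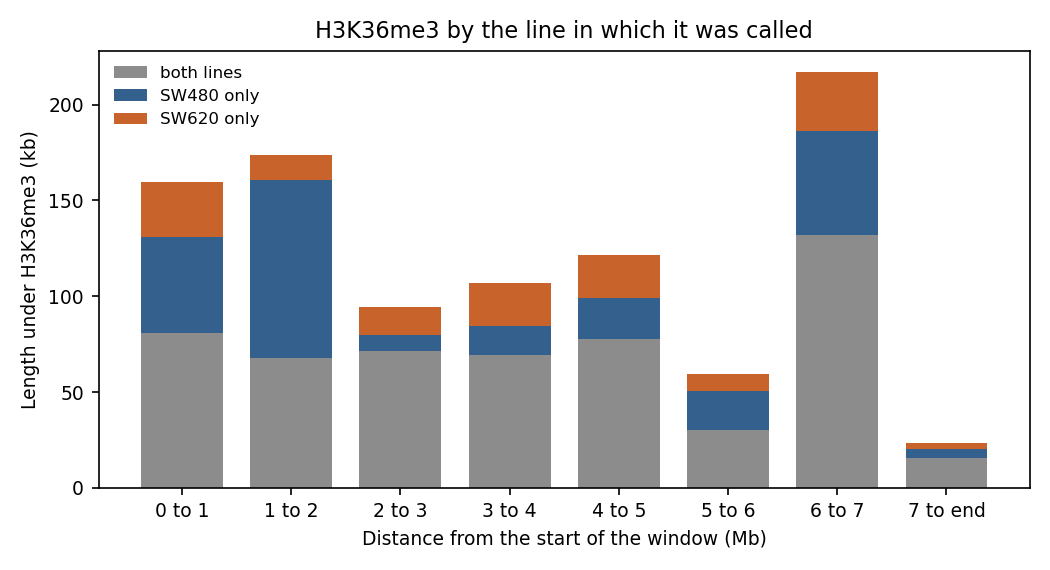
Length in kb under H3K36me3 in both lines (grey), in SW480 only (blue) and in SW620 only (orange), by distance from the start of the window in Mb. Between 1 and 2 Mb, which is 53 to 54 Mb on the chromosome, 92.7 kb were SW480 only and 13 kb SW620 only, and in the next bin 8.37 and 14.8 kb.

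Whole H3K36me3 domains without any SW620 call numbered 45 of 140 in SW480 (32.1%, 25 to 40.3). Over the genome the share was 35.4%, and on the rest of chromosome 19 it was 22.6% (19.9 to 25.6). On the rest of the long arm alone it was 28.2% (23.8 to 32.9). In SW620 10 of 107 domains (9.35%, 5.16 to 16.4) were without SW480 H3K36me3, against 27.1% over the genome and 14.7% (12.4 to 17.3) on the rest of the chromosome. Of the 45, 16 lay between 53 and 54 Mb, where they added up to 58.3 kb. That bin held 31 of all 140 SW480 domains and is the one named above for its line difference, so the 16 are part of that difference. The widest were 14.0 kb at 53116801 to 53130806, made of 6 regions, 9.86 kb at 52195221 to 52205078, 6.52 kb at 53952977 to 53959493, 5.92 kb at 53416184 to 53422099 and 5.38 kb at 53879544 to 53884924. The one from 52195221 began 647 bp from an SW480 H3K4me3 region, and SW620 had H3K4me3 946 bp away. The SW620-only domains were shorter, the widest being 3.52 kb at 52625621 to 52629137 and 3.10 kb at 55966053 to 55969157.

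Promoter calls near these domains were as frequent in SW620 as in SW480. Of the 45 SW480-only domains, 17 had SW480 H3K4me3 within 5 kb (37.8%, 25.1 to 52.4), and 17 had SW620 H3K4me3 within that distance. These domains had a median width of 1671 bp and added up to 116 kb, against 6281 bp and 802 kb for the 95 shared ones, of which 66 had SW480 H3K4me3 within 5 kb.

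FOXA2 was scarce in the SW620 window. SW620 had 10 FOXA2 peaks there, 1.40 per Mb against 4.79 on the rest of chromosome 19, a ratio of 0.293. SW480 had 21 peaks, 2.95 per Mb against 3.21. The order of the lines was thus turned: 0.476 SW620 peaks per SW480 peak in the window, 1.49 on the rest of the chromosome and 2.38 in the lists. The share of tags inside FOXA2 peaks was low and unequal, 0.59% in SW480 and 2.25% in SW620. Its part in these ratios was not tested, so they compare called peaks and do not measure binding. Of the SW620 peaks 9 of 10 lay between 54 and 56 Mb, where 8 of the 21 SW480 peaks lay. The window bin with the most SW620 peaks had 5, which equals the median of the bins on the rest of the chromosome.

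SW620 FOXA2 peaks sat on H3K4me2 of their line in 7 of 10 cases (70.0%, 39.7 to 89.2; 70.5% on the rest of the chromosome), and SW480 peaks in 2 of 21 (9.52%, 2.65 to 28.9; 13.4%). Of the SW620 peaks 4 lay on H3K27ac (40.0%, 16.8 to 68.7; 44.9% on the rest of the chromosome). Among them was the one listed earliest of the 10, entry 90 of the whole SW620 list, at 54367696 to 54368014. It lay next to the widest H3K4me3 region of either line and was acetylated in both. The peak at 55721453 to 55721771 lay on H3K27ac and H3K4me2 in SW620 with no histone mark in SW480. In SW480 no peak lay on H3K27ac (0 of 21, up to 15.5%; 5.73% on the rest of the chromosome). The SW480 peaks with H3K4me2 were at 54599488 to 54599614 and 54409128 to 54409254. None of the 31 peaks of either line lay on H3K36me3 (up to 15.5% in SW480 and 27.8% in SW620 by the intervals). On the rest of the chromosome 3.82% of SW480 and 7.26% of SW620 peaks lay on it, so the window cannot be told from the rest.

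FOXA2 peaks called in one line only made up 19 of 21 (90.5%; whole list 95.5%) in SW480 and 8 of 10 (80.0%; whole list 98.1%) in SW620. The lines shared 3 FOXA2 positions on chromosome 19, and 2 of them were in the window. One was at 54922802 to 54922928 in SW480 and 54922833 to 54923151 in SW620, the other at 54009671 to 54009797 and 54009546 to 54009864. Both were without any of the 4 histone marks in either line. They were entries 2 and 259 of the SW480 list and 4651 and 2465 of the SW620 list.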

How the data were processed

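Regions of the 10 antibody libraries were used as the authors deposited them. Per the file headers, HOMER findPeaks called histone regions with 4-fold enrichment over input and local background, a size of 1000 bp and a false discovery rate of 0.001, and FOXA2 peaks with 2-fold minima. The build, hg19, comes from the submitters' processing notes, and no aligner or HOMER version could be given from these sources. The deposited score was 1 in every row, so only positions were used, and calling strength could not be compared. The 2 inputs entered only through the authors' calling.

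Overlap meant at least 1 bp. Covered length was the union of regions. The rest of chromosome 19 was 48.9 Mb, without the longest stretch free of regions (3.15 Mb), and the long arm alone 24.2 Mb. Bins of 1 Mb with under 50% of that stretch were kept. Python 3.11.15, numpy 2.4.6, pandas 2.3.3, scipy 1.17.1 and matplotlib 3.10.9 were used. Functions were tested on 2000 simulated regions per antibody, with 100% of shared calls correct.

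Named were, per line, the 5 widest joined H3K36me3 domains overall and line-only, the 3 widest H3K4me3, the 5 widest line-only H3K4me3, the 3 widest H3K27ac without H3K4me3, and, as needed, the first 10 FOXA2 peaks and the bins with most and least H3K36me3. Regions were not assigned to genes, and no sequence is shown, since no hg19 annotation or genome was used here. Members and lists were chosen with earlier results of these data known. FOXA2 peak widths follow a size set per library (medians of 127 bp in SW480 and 319 bp in SW620), so FOXA2 cover was not compared. Alternatives changed the window, the comparison, widths, list lengths, joins and overlap.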

Additional observations from a re-analysis of the deposited data

Results flagged for a closer look

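Results in which the lines went opposite ways when the window was set against the rest of chromosome 19 are listed here. With 1 library per line none of these differences was tested. The share of H3K27ac regions found in the other line was lower in the window by 3.96 percentage points for SW480 (window minus rest, -3.96) and higher by 10.2 for SW620. For H3K36me3 the differences were -8.35 and 2.93, and for H3K4me3 -0.809 and 3.34, SW480 first. The share of H3K4me3 regions with H3K27ac was higher by 4.55 points in SW480 and lower in SW620 (-5.94). The log2 ratio of H3K4me3 cover, window over rest, was 0.0278 in SW480 and -0.118 in SW620. Among these shares, the intervals of window and rest were clear of each other only for H3K27ac in SW620 and H3K36me3 in SW480. Against the long arm alone the lines went the same way in H3K4me3 cover (ratios of 1.09 and 1.03) and in shared H3K27ac (2.49 and 10.9 points).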

How the results depend on the processing

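No paired analysis was possible because each group has 1 library. For the 59 results, 171 values under alternatives were computed, and 133 kept their direction and stayed within set limits. The limits were 1.5 times for ratios, counts and widths and the 95% interval for shares. A difference between window and rest could shift by up to 50% of the width of the window share's interval. With equal list lengths all 24 stayed within these limits, and with H3K4me3 of either line counted, 2 of 2. For equal lengths the shorter list was kept whole, so its own cover ratio could not change. No H3K36me3 value changed either, so this alternative did not test list length for that mark. Against all other chromosomes, whose length was taken up to their last region, the ratio of cover in the window turned above 1 or rose, SW480 first: 2.89 and 2.49 for H3K4me2, 3.92 and 3.60 for H3K4me3, 2.63 and 2.11 for H3K27ac, 2.52 and 2.29 for H3K36me3, and 1.78 for SW480 FOXA2 peaks. The window is thus low in H3K27ac, H3K4me2 and H3K36me3 only relative to its own gene-rich chromosome. Against the long arm the ratio was 1.00 for SW480 H3K36me3, 1.03 for SW620 H3K4me3 and 1.02 for SW480 FOXA2, the ratio of median domain width was 1.14 in SW620, and the difference in shared SW480 H3K27ac regions was 2.49 points. Starting at 53 Mb gave 1.03 for SW480 FOXA2, and leaving out 53 to 54 Mb, added after the data were seen, 1.02. With regions of 2000 bp or wider the SW480 H3K4me3 cover ratio was 0.932, and the shared percentages were 96.3 and 100 for H3K4me2, 97.4 for SW480 H3K4me3, 80.0 and 100 for H3K27ac, and 85.3 and 96.6 for H3K36me3. Requiring 50% of the region gave 57.8% and 74.4% of H3K36me3 regions shared, and within 1 kb 92.3% of SW620 H3K36me3 regions were shared. H3K4me3 on H3K36me3 was 28.0% and 29.9% within 1 kb and 1.24% and 0.730% at 50% overlap. Joining over 10000 bp gave 80 and 69 domains with medians of 10943 and 9040 bp, and joining over 1000 bp width ratios of 0.999 in SW480 and 1.06 in SW620. The 0% of SW620 FOXA2 peaks shared at 50% overlap is no measurement, since an SW480 peak of 127 bp cannot cover that much of an SW620 peak of 319 bp. With equal numbers of first-listed FOXA2 peaks the SW620 to SW480 ratio was 0.190. Apart from what follows from fewer or wider regions, the cause was not tested. Without a score, regions just below the caller's threshold in one line cannot be told from absent ones.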

Other observations

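Bases that carried a promoter mark and H3K36me3 together were a small part of the window. In SW480, 15.9 kb carried all 4 histone marks (1.20% of the marked bases, against 0.815% on the rest of chromosome 19), and in SW620 10.7 kb (0.930%, against 0.716%). H3K27ac with H3K36me3 and no H3K4 methylation covered 4.05 kb in SW480 (0.307%, against 1.09%) and 1.27 kb in SW620 (0.111%, against 0.829%). Outside H3K36me3, H3K4me2 and H3K4me3 without acetylation covered 35.6 kb in SW480 (2.70%, against 2.29%) and 57.2 kb in SW620 (4.99%, against 3.64%).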
